A study of Mus musculus with 18 samples.

Results

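The insulin-like growth factor (IGF) genes described here are 10 of the 35275 genes in the deposited expression table. They are the ligand gene Igf1, the receptor gene Igf1r, the receptor adaptor genes Irs1 and Irs2, and the IGF-binding protein genes Igfbp2, Igfbp3, Igfbp4, Igfbp5, Igfbp6 and Igfbp7. The list names genes by function and has no threshold, but it was chosen by someone who had the levels of these same 18 libraries in view. The levels and calls below therefore describe these libraries, and a call is not independent evidence of a gene's direction.

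RNA-seq counted polyadenylated RNA per gene. All libraries came from C2C12 cells, an established mouse myoblast line that can fuse into multinucleated myotubes when serum is lowered, and the growth protocol calls this stock PAX7 negative. The 6 groups of 3 biological replicates were control cells (labelled wild-type), cells overexpressing the spliced form of the long noncoding RNA MUNC (MUNC spliced) and cells overexpressing its genomic, unspliced form (MUNC genomic), each in 2 media. Growth medium (GM) held 20% fetal bovine serum and cells were taken below confluence, while DM3 cells had spent 3 days in medium with 2% horse serum. Below, differentiation names the comparison of DM3 with GM in a cell line, a change of medium, and not a measured state of the cells. The labels give neither the vector nor whether a line is a clone or a pool, and control cells are not said to carry an empty vector. No independently made lines of the same form are labelled, so an effect of MUNC and a trait of the line cannot be told apart. The SE and adjusted p below measure the spread of replicates, not of lines. The level of MUNC itself was not analysed here, so overexpression was not checked.

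IGF1 is a secreted growth factor that muscle cells make and respond to, and it is known for driving myoblast differentiation and muscle growth. It binds the receptor tyrosine kinase IGF1R, which phosphorylates the adaptors IRS1 and IRS2 and so activates PI3K, AKT and mTOR. IGF-binding proteins hold IGFs outside the cell and can block or prolong their access to the receptor. Several of them also bind the extracellular matrix and act without IGF.

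The E-box has the general form CANNTG, with N for any base. MyoD family factors bind some E-boxes but not every CANNTG, and MUNC is transcribed upstream of Myod1. The promoters shown are those of Igfbp2, Igfbp3, Igfbp5 and Igf1, the 4 genes with the widest range of group means on the log2 scale. Each is 300 bases from RefSeq on GRCm38.p6, 250 before the annotated start and 50 from it on, read 5′ to 3′ on the gene's strand with E-boxes in capitals. The windows are chr1:72824230-72824529 on the plus strand for Igfbp2, chr1:72874816-72875115 on the minus strand for Igfbp5, chr11:7213874-7214173 on the minus strand for Igfbp3 and chr10:87860861-87861160 on the plus strand for Igf1.
Igfbp2: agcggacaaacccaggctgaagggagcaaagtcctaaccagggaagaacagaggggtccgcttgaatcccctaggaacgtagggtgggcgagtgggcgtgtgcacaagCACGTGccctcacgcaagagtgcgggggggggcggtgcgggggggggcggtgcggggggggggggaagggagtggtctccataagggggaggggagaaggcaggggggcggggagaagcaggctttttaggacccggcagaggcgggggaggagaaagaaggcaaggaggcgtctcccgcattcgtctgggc
Igfbp5: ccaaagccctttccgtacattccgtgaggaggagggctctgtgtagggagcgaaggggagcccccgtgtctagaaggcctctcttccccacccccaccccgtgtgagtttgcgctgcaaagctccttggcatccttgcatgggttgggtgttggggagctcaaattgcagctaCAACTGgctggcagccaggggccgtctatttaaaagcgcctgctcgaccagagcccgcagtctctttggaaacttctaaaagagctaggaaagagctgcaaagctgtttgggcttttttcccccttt
Igfbp3: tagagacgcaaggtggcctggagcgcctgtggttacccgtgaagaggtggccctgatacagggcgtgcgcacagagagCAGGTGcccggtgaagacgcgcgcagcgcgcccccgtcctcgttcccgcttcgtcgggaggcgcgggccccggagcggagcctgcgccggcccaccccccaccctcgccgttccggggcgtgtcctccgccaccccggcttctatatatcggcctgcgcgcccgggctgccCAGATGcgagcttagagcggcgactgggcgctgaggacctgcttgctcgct
Igf1: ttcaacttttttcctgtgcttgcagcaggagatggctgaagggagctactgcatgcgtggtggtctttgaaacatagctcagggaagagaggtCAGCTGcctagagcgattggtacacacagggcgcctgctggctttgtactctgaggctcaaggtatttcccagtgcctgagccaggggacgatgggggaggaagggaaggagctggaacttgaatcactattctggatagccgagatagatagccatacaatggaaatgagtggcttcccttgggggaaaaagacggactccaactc

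The Igfbp2, Igfbp5 and Igf1 windows held 1 E-box each and the Igfbp3 window held 2. Of the 10 genes, 8 had at least 1 E-box in their window, and Igf1r and Igfbp7 had none. Over all 32851 RefSeq windows of the same length, 72.3% held CANNTG. This motif reads the same on both strands and includes CAGCTG, which was in 16.3% of the windows and, among the 10 genes, only in that of Igf1. TATAAA, searched on both strands, was in the windows of Igfbp4 and Igfbp6 and in 13.6% of all. A match is a description of letters, not a measured binding site. The Igf1 window starts at a RefSeq start 2.8 kb from the outermost start of the GENCODE gene, and Igf1 is known to have more than 1 promoter.

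In the GENCODE M21 annotation of GRCm38, Igfbp2 spans chr1:72824503-72852474 on the plus strand and Igfbp5 spans chr1:72857932-72874884 on the minus strand. The ends of these neighbours lie 5.5 kb apart, with no annotated gene between them. Igfbp3 is at chr11:7206086-7213923 on the minus strand, and Igf1 is at chr10:87858265-87937042 on the plus strand. Counts are per gene and do not separate exons, introns or transcripts.

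Values are in FPM, the reads of a gene divided by a size factor of its library, without division by gene length. A gene was called when its adjusted p was below 0.05 in limma on log2(FPM + 1), with Benjamini-Hochberg adjustment over all 13869 genes tested. Log2 changes are on that scale, which understates changes of genes near 0. Those given for a pseudocount of 0.1, edgeR, DESeq2 or the authors' deposited tables are on other scales. Depth was 38416702 to 68788327 reads per library, so that 3 reads, the upper limit that a count of 0 allows, were at most 0.0757 FPM. This limit covers counting error only.

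Replicates correlated at r of 0.98 to 0.996 across tested genes, and libraries of different groups at 0.868 to 0.975. Of 11 myoblast and myotube markers, 10 were found by symbol. The other, Mymk, is listed under the symbol Tmem8c and was left out of these counts and sums. Of the 10, 4 in control GM, 8 in MUNC spliced GM, 5 in MUNC genomic GM, 5 in control DM3 and 9 in each MUNC line in DM3 reached 0.5 FPM in every library. In GM their summed level was 157 to 175 FPM in control, 248 to 346 FPM in MUNC spliced and 399 to 695 FPM in MUNC genomic cells. In DM3 it was 237 to 333 FPM in control, 475 to 1257 FPM in MUNC spliced and 1071 to 1260 FPM in MUNC genomic cells. Des, the desmin gene, made up most of the GM sum of the MUNC genomic line, with a mean of 476 FPM. Of the rest, Myf5 (26.7 FPM), Cdh15 (22.9 FPM) and Acta1 (8.2 FPM) averaged less than in control GM. Myod1 (3.84 FPM) and Tnnt1 (2.35 FPM) averaged more, and the other markers stayed under 0.5 FPM in both. After differentiation Myf5 was again lower in this line than in control, at 29.4 against 103 FPM. In MUNC genomic DM3 most of the sum was Des, with a mean of 898 FPM. Myog, the myogenin gene, averaged 9.7 FPM there, 106 FPM in MUNC spliced DM3 and 0.344 FPM in control DM3. Myh3, the embryonic myosin heavy chain gene, averaged 9.64, 79.8 and 0.444 FPM in the same groups. Between control GM and control DM3, Tnnt1 went from 0.548 to 34.8 FPM and Des from 24.2 to 77.5 FPM. Myf5 went from 71.8 to 103 FPM and Cdh15 from 46.3 to 76.4 FPM, while Acta1 fell from 20.7 to 4.35 FPM. Myod1, Myog, Ckm and Myh3 averaged under 0.5 FPM in both of these groups. Pax7 averaged under 0.1 FPM in every group. Of 6 fibroblast markers, 4 or 5 reached 0.5 FPM in every library of a group, while Thy1 was at or near 0. Their sums in GM were 3987 to 6789.8 FPM in control, 7989 to 14868 FPM in MUNC spliced and 3279 to 9276 FPM in MUNC genomic cells. In DM3 they were 6916 to 8202 FPM in control, 13289.8 to 13821 FPM in MUNC spliced and 9759 to 11131 FPM in MUNC genomic cells. In both media every MUNC spliced library lay above every control library, and in DM3 every MUNC genomic library did too. Most of these sums came from Col1a1 and Col3a1. In DM3 Col1a1 averaged 1928 FPM in control, 3738 FPM in MUNC spliced and 1388 FPM in MUNC genomic cells, and Col3a1 5539, 9406 and 8878 FPM. Summed endothelial markers were 7.14 to 7.62 FPM in MUNC genomic GM and 0.273 to 0.761 FPM in control GM. Nearly all of the MUNC genomic GM sum was 1 gene, Cdh5, with a mean of 7.14 FPM. Pecam1, Kdr, Tek and Emcn averaged at most 0.145 FPM there. Summed adipocyte and macrophage markers reached at most 12.9 and 23.3 FPM. The part of these marker differences in the results below was not tested.

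Igf1, the ligand gene, was high in MUNC spliced cells after differentiation and low in every other group. Its level in MUNC spliced DM3 was 42.3, 42.7 and 71.5 FPM, for a mean of 52.2 ± 16.8 (SD, n = 3). In control DM3 it was 3.8, 0.73 and 0.424 FPM. In MUNC genomic DM3 it was 3.36, 2.68 and 1.83 FPM. All 3 MUNC spliced DM3 libraries stood above the other 15. In bulk RNA, more cells expressing a gene and more RNA per cell cannot be told apart.

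In growth medium Igf1 stood at 3.33, 7.04 and 1.42 FPM in MUNC spliced cells, 2.43, 4.34 and 0.399 FPM in MUNC genomic cells and 0.956, 0.867 and 0.108 FPM in control cells. Replicate 3 was the lowest of its group in all 3 cell lines. The differentiation change in MUNC spliced cells was a log2 change of 3.56 (SE 0.51, limma adjusted p = 9.89e-05), a mean ratio of 13.3. Against control, Igf1 rose by 4.5 in DM3 (SE 0.51, limma adjusted p = 3.49e-06), a mean ratio of 31.6, and the log2 change was 4.16 to 5.04 when each library was left out in turn. Within replicate numbers the ratio was 11.1, 58.5 and 169, and without control DM3 replicate 1, the highest control library, the mean ratio was 90.4. Against MUNC genomic cells in DM3 the log2 change was 3.85 (SE 0.51, limma adjusted p = 1.31e-05).

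In GM, Igf1 in MUNC spliced cells exceeded control by a log2 change of 1.46 (SE 0.51, limma adjusted p = 0.0356), with ratios of 3.48, 8.12 and 13.2 within replicate numbers 1, 2 and 3. It was also called with a pseudocount of 0.1 in place of 1 (2.49, limma adjusted p = 0.0291), with the replicate block (limma adjusted p = 0.0146), in edgeR (2.58, adjusted p = 0.0307) and in DESeq2 (2.61, adjusted p = 0.0173). The call was lost without the filter on low values (limma adjusted p = 0.0848) and with quantile normalization (1.27, limma adjusted p = 0.0554). It was also lost without control GM replicate 1, 2 or 3, at log2 changes of 1.61, 1.58 and 1.2, and without MUNC spliced GM replicate 1 or 2, at 1.47 and 1.02 (limma adjusted p from 0.0503 to 0.176). Igf1 was not called between GM and DM3 in control or MUNC genomic cells. Against control GM, MUNC genomic cells were called higher only without MUNC genomic GM replicate 3, by 1.43 (limma adjusted p = 0.0463).

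Within MUNC spliced DM3, Igf1 was highest in replicate 3 whereas the muscle genes were highest in replicate 1. Myog read 226, 52.6 and 41 FPM and Myh3 177, 24.2 and 37.9 FPM in replicates 1, 2 and 3. Tmem8c, the gene of the fusion protein myomaker, read 63.7, 11.8 and 15.3 FPM. Over the 6 group means, though, Tmem8c was the gene whose pattern was most like that of Igf1, with a root mean square difference of 0.326 between centred log2 means over 11025 genes compared, followed by Lix1 at 0.425.

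**Figure D1:**
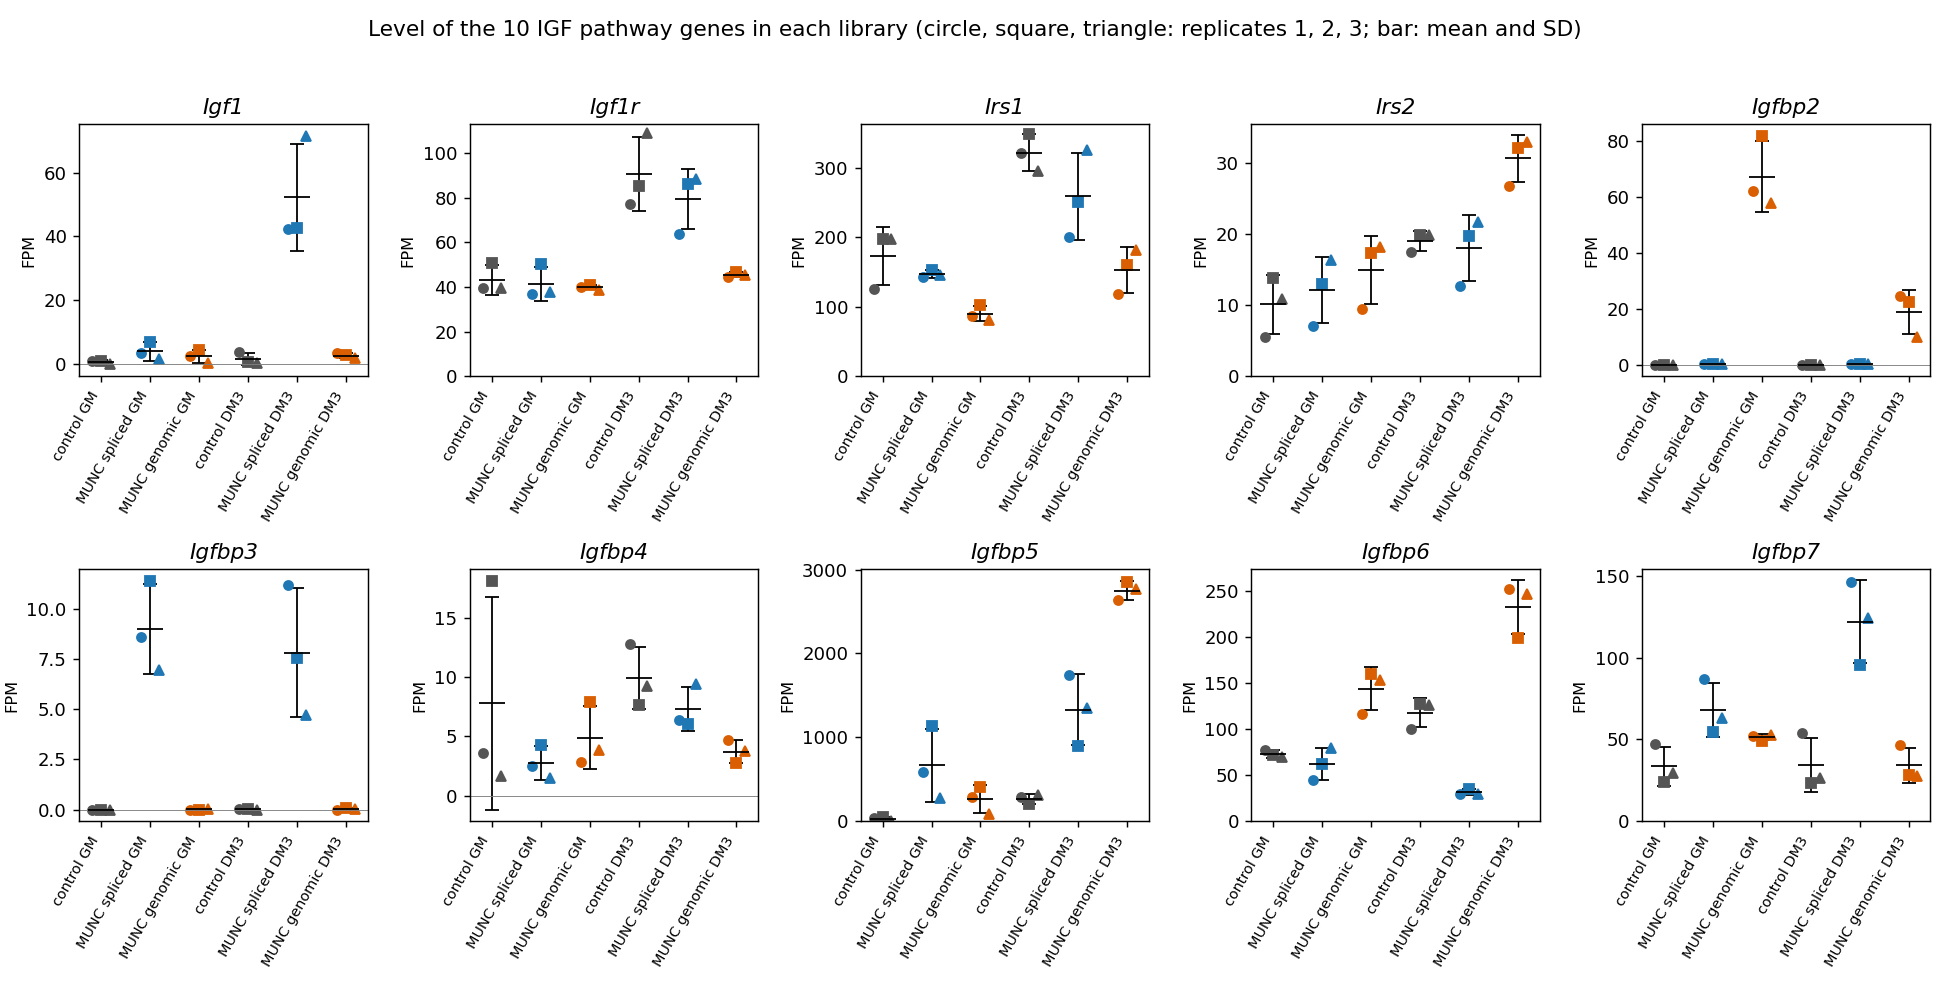
Level in FPM (y axis, linear, each panel on its own scale) of the 10 genes in the 6 groups (x axis), with circles, squares and triangles for replicates 1, 2 and 3 and bars for mean and SD. Igf1 stands high only in MUNC spliced DM3, Igfbp2 only in the MUNC genomic groups and Igfbp3 only in the MUNC spliced groups.

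Igf1r, the receptor gene, rose with differentiation in control and MUNC spliced cells, and in DM3 it was lower in MUNC genomic cells than in either. It read 39.4, 50.8 and 39.3 FPM in control GM and 77.3, 85.2 and 109 FPM in control DM3. MUNC spliced cells read 36.6, 50.1 and 37.5 FPM in GM and 63.9, 85.9 and 88.2 FPM in DM3. MUNC genomic cells read 40.1, 40.7 and 38.8 FPM in GM and 44.6, 46.7 and 45.2 FPM in DM3.

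The 9 GM libraries of Igf1r overlapped across lines, and in DM3 every MUNC genomic library lay below every library of the other lines. The log2 change with differentiation was 1.05 in control cells (SE 0.15, limma adjusted p = 2.87e-05) and 0.92 in MUNC spliced cells (SE 0.15, limma adjusted p = 0.000324). In MUNC genomic cells the DM3 libraries lay above the GM libraries without overlap, at a mean ratio of 1.14, and the gene was not called. In DM3, MUNC genomic cells were lower than control by 0.96 on the log2 scale (SE 0.15, limma adjusted p = 0.000104). MUNC spliced cells were higher than MUNC genomic cells by 0.77 (SE 0.15, limma adjusted p = 0.000652).

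Irs1 encodes a main adaptor of the IGF1 and insulin receptors in muscle. It was called higher in DM3 than in GM in all 3 cell lines, and lower in MUNC genomic than in control cells of both media. In GM it read 125, 198 and 197 FPM in control, 143, 153 and 146 FPM in MUNC spliced and 86.6, 102 and 81.6 FPM in MUNC genomic cells. In DM3 it read 321, 349 and 296 FPM in control, 201, 250 and 325 FPM in MUNC spliced and 118, 160 and 182 FPM in MUNC genomic cells. MUNC genomic cells were the lowest line in each medium, without overlap.

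The log2 change of Irs1 with differentiation was 0.92 in control cells (SE 0.19, limma adjusted p = 0.000735), 0.78 in MUNC spliced cells (SE 0.19, limma adjusted p = 0.00532) and 0.74 in the MUNC genomic line (SE 0.19, limma adjusted p = 0.00441). Against control, MUNC genomic cells fell by 0.91 in GM (SE 0.19, limma adjusted p = 0.00222) and by 1.09 in DM3 (SE 0.19, limma adjusted p = 0.000284). MUNC spliced cells exceeded MUNC genomic cells by 0.71 in GM (SE 0.19, limma adjusted p = 0.00914) and 0.75 in DM3 (SE 0.19, limma adjusted p = 0.0049). Irs1 shares 2822 exon bases with Gm9747 on the opposite strand, which had 0 FPM in all libraries.

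Irs2, the gene of the other main adaptor, was highest in MUNC genomic DM3. It read 26.7, 32 and 32.9 FPM there, against 17.4, 19.8 and 19.8 FPM in control DM3 and 12.6, 19.7 and 21.6 FPM in MUNC spliced DM3. GM values were 5.55, 13.8 and 10.9 FPM in control, 7.07, 12.9 and 16.3 FPM in MUNC spliced and 9.38, 17.3 and 18.1 FPM in MUNC genomic cells. Replicate 1 was lowest in all 6 groups. Irs2 was thus higher in MUNC genomic DM3 than in any other library, where Irs1 was lower than in the other lines.

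The log2 change of Irs2 with differentiation was 0.93 in control cells (SE 0.31, limma adjusted p = 0.0187) and 1.03 in the MUNC genomic line (SE 0.31, limma adjusted p = 0.0117). Without control GM replicate 1 the first was 0.59 and not called (limma adjusted p = 0.121), and without control DM3 replicate 2 it was 0.9 (limma adjusted p = 0.0506). Without MUNC genomic GM replicate 1 the other was 0.75 and not called (limma adjusted p = 0.0726). With the replicate number as a block, Irs2 was also called higher in MUNC genomic cells than in control, at a log2 change of 0.55 in GM (SE 0.17, limma adjusted p = 0.0221) and 0.66 in DM3 (SE 0.17, limma adjusted p = 0.00599). Without the block these had limma adjusted p of 0.22 and 0.109.

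Igfbp2, a binding protein gene with a matrix and integrin-binding product, was present in MUNC genomic cells and close to absent from the other lines. MUNC genomic cells read 62.3, 82 and 58 FPM in GM and 24.6, 22.4 and 9.87 FPM in DM3. Control cells had 3, 0 and 0 reads in GM and 0, 1 and 1 reads in DM3. MUNC spliced cells had 3, 4 and 7 reads in GM and 12, 5 and 13 reads in DM3. The MUNC genomic libraries held 11969 reads in GM and 3232 in DM3.

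Per library size, Igfbp2 was 4068-fold higher in MUNC genomic than in control GM, with a 95% counting interval of 1392 to 19728 because control held 3 reads in all. In DM3 the ratio was 1509, with an interval of 417 to 12466. Against MUNC spliced cells it was 724 in GM (interval 431 to 1324) and 106 in DM3 (interval 74.1 to 157). These intervals cover counting error only.

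On the log2(FPM + 1) scale Igfbp2 rose by 6.06 in MUNC genomic against control GM (SE 0.23, limma adjusted p = 4.06e-12) and by 4.2 in DM3 (SE 0.23, limma adjusted p = 3.36e-10). Within MUNC genomic cells it fell by 1.86 with differentiation (SE 0.23, limma adjusted p = 7.78e-06), to a mean of 18.9 ± 7.92 from 67.4 ± 12.8 FPM (SD, n = 3). Igfbp7 was called lower with differentiation of that line with the replicate block, at a log2 change of -0.61 (limma adjusted p = 0.0043), where the fit without it gave a limma adjusted p of 0.0935. It was also called lower with only the compared groups fitted (limma adjusted p = 0.0381), and at -0.85 without MUNC genomic DM3 replicate 1 (limma adjusted p = 0.0363). Igfbp2 passed the filter on low values only through the 6 MUNC genomic libraries.

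Igfbp3, whose product is the main IGF carrier in blood, was present in MUNC spliced cells and close to absent from the others. It read 8.58, 11.4 and 6.96 FPM in MUNC spliced GM and 11.2, 7.58 and 4.74 FPM in DM3, so GM and DM3 overlapped. Control cells had 0 reads in all 3 GM libraries and 1, 1 and 0 reads in DM3. MUNC genomic cells had 0, 0 and 1 reads in GM and 0, 4 and 2 reads in DM3. Igfbp3 passed the filter only through the 6 MUNC spliced libraries.

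In GM, Igfbp3 stood at least 541-fold higher with spliced MUNC than in control, taking 3 reads over the control group as the floor. In DM3 the ratio to control was 611, with a 95% counting interval of 169 to 5048. Against MUNC genomic cells it was 1591 in GM (interval 285 to 62881) and 218 in DM3 (interval 99.9 to 595). On the log2(FPM + 1) scale the changes against control were 3.29 in GM (SE 0.2, limma adjusted p = 2.62e-09) and 3.06 in DM3 (SE 0.2, limma adjusted p = 5.1e-09). Differentiation of MUNC spliced cells gave a mean ratio of 0.873 and no call. Without MUNC spliced DM3 replicate 1, the highest DM3 library, Igfbp3 was called lower, at -0.48 (limma adjusted p = 0.0314). Igfbp2 and Igfbp3 thus each marked a different MUNC line in these libraries. Their filter status follows from that, so no count over the 10 genes is read as support for it.

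Igfbp5, the binding protein gene best known for its induction during myoblast differentiation, had the highest mean level per kb of exon of the 10 in each MUNC line in DM3, at 221 ± 70.4 FPM per kb in MUNC spliced and 458 ± 18.3 FPM per kb in MUNC genomic cells (SD, n = 3). It read 35.5, 47.7 and 6.36 FPM in control GM, 588, 1138 and 276 FPM in MUNC spliced GM and 294, 408 and 80 FPM in MUNC genomic GM. In DM3 it read 294, 201 and 308 FPM in control, 1743, 899 and 1347 FPM in MUNC spliced and 2634, 2852 and 2763 FPM in MUNC genomic cells. In GM, replicate 2 was the highest and replicate 3 the lowest in all 3 lines. No MUNC library overlapped the control of the same medium.

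Against control GM, the log2 change of Igfbp5 was 4.6 in MUNC spliced (SE 0.65, limma adjusted p = 5.43e-05) and 3.18 in the MUNC genomic line (SE 0.65, limma adjusted p = 0.00162). In DM3 the order of the lines turned, with 2.28 in MUNC spliced (SE 0.65, limma adjusted p = 0.00956) and 3.38 in the MUNC genomic line (SE 0.65, limma adjusted p = 0.000559). Igfbp5 was not called between the MUNC lines in either medium in the fit of all libraries. It was called in DM3 with only the compared groups fitted, at -1.1 for MUNC spliced minus MUNC genomic (limma adjusted p = 0.0101), and in GM without MUNC spliced GM replicate 3, at 1.94 (limma adjusted p = 0.0408). When each library was left out in turn, the change against control GM was 3.76 to 5.12 in MUNC spliced and 2.34 to 3.88 in MUNC genomic cells and stayed called. Within replicate numbers, the ratio to control GM was 16.5, 23.8 and 43.4 in MUNC spliced and 8.28, 8.55 and 12.6 in MUNC genomic cells. In DM3 the ratios were 5.92, 4.48 and 4.37 in MUNC spliced and 8.95, 14.2 and 8.96 in MUNC genomic cells.

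With differentiation Igfbp5 rose by 3.49 on the log2 scale in control (SE 0.65, limma adjusted p = 0.000259) and by 3.68 in the MUNC genomic line (SE 0.65, limma adjusted p = 0.000206). The control change was 2.65 without control GM replicate 3 and 4.01 without control GM replicate 2, and the other was 2.98 without MUNC genomic GM replicate 3 and 4.15 without replicate 2, all still called. In MUNC spliced cells it averaged 667 ± 436 FPM before and 1329.7 ± 423 FPM after differentiation (SD, n = 3). There the groups overlapped and the gene was not called. The control rise took Igfbp5 to 268 ± 58.7 FPM, near the 261 ± 167 FPM that MUNC genomic cells held in GM (SD, n = 3). Control DM3 cells averaged only 0.344 FPM of Myog and 0.444 FPM of Myh3.

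Igfbp6, a binding protein with a preference for IGF2, moved in opposite directions in the MUNC lines. In DM3 control cells read 99.9, 128 and 126 FPM, MUNC spliced cells 29.6, 35 and 29.9 FPM and MUNC genomic cells 253, 200 and 247 FPM. In GM it read 77.6, 71.5 and 69.9 FPM in control, 44.3, 62.3 and 79.6 FPM in MUNC spliced and 117, 160 and 154 FPM in MUNC genomic cells. None of the 3 DM3 groups overlapped, and in GM MUNC spliced cells overlapped control.

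In DM3, Igfbp6 fell by 1.87 in MUNC spliced cells against control (SE 0.18, limma adjusted p = 4.62e-07) and rose by 0.98 in the MUNC genomic line (SE 0.18, limma adjusted p = 0.000332). The difference between the MUNC lines was -2.85 for MUNC spliced minus MUNC genomic (SE 0.18, limma adjusted p = 1.57e-09), a mean ratio of 7.4 in favour of MUNC genomic. In GM, MUNC genomic cells exceeded control by 0.96 (SE 0.18, limma adjusted p = 0.000752). MUNC spliced GM was called lower than control only without MUNC spliced GM replicate 3, at -0.47 (limma adjusted p = 0.0457). With differentiation Igfbp6 rose by 0.68 in control (SE 0.18, limma adjusted p = 0.00369) and by 0.7 in the MUNC genomic line (SE 0.18, limma adjusted p = 0.00355). It fell by 0.92 in MUNC spliced cells (SE 0.18, limma adjusted p = 0.000903).

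Igfbp7, whose product binds IGFs weakly and is a matrix protein, was highest in MUNC spliced cells. In DM3 MUNC spliced cells read 146, 95.5 and 124 FPM, control cells 53.6, 23.5 and 26.5 FPM and MUNC genomic cells 46.5, 28.3 and 27.7 FPM. GM values were 47.2, 24.1 and 29.4 FPM in control, 86.7, 54.8 and 62.8 FPM in MUNC spliced and 51.9, 49.3 and 52.6 FPM in MUNC genomic cells. The MUNC spliced libraries lay above the control libraries of the same medium.

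Against control, Igfbp7 in MUNC spliced cells rose by 1.87 in DM3 (SE 0.3, limma adjusted p = 9.71e-05) and by 1.03 in GM (SE 0.3, limma adjusted p = 0.0127). The GM value was 0.83 without control GM replicate 2 (limma adjusted p = 0.0603) and 0.84 without MUNC spliced GM replicate 1 (limma adjusted p = 0.0609). Its differentiation change of 0.84 in MUNC spliced cells (SE 0.3, limma adjusted p = 0.0369) was lost without replicate 2 or 3 of GM or replicate 1 or 3 of DM3, at changes of 0.7 to 0.81 and limma adjusted p of 0.0937 to 0.108. It was also lost without the filter on low values (limma adjusted p = 0.0798). With the replicate block, Igfbp7 was also called higher in MUNC genomic than in control GM, at 0.65 (SE 0.16, limma adjusted p = 0.0053), where the fit without it gave a limma adjusted p of 0.115. Igfbp7 shares 85 exon bases with Polr2b on the opposite strand, which read 102 to 175 FPM, so without a known strand setting a few reads could belong to either.

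Igfbp4, an inhibitory binding protein that the protease PAPP-A cleaves, was called in none of the 9 group comparisons in the fit of all libraries, but some alternatives called it. It read 3.6, 18.1 and 1.69 FPM in control GM, 2.5, 4.31 and 1.53 FPM in MUNC spliced GM and 2.88, 7.9 and 3.86 FPM in MUNC genomic GM. In DM3 it read 12.8, 7.67 and 9.26 FPM in control, 6.38, 6.03 and 9.42 FPM in MUNC spliced and 4.69, 2.74 and 3.77 FPM in MUNC genomic cells. Replicate 2 was the highest GM library in each line. In DM3 the MUNC genomic libraries lay below those of control, at a mean ratio of 0.377. That difference, a log2 change of -1.2, was called with only the compared groups fitted (limma adjusted p = 0.00316) and with quantile normalization (limma adjusted p = 0.0483). With only the compared groups fitted Igfbp4 was also called higher in MUNC spliced than in MUNC genomic DM3, by 0.8 (limma adjusted p = 0.0194), and higher with differentiation of MUNC spliced cells, by 1.17 (limma adjusted p = 0.0337). Without control GM replicate 2 it was called higher with differentiation of control cells, by 1.6 (limma adjusted p = 0.00163). Without control GM replicate 3 it was called lower in MUNC spliced than in control GM, at -1.38 (limma adjusted p = 0.043). In the authors' deposited table for MUNC genomic against control DM3, Igfbp4 had a log2 fold change of -1.4 (SE 0.25, adjusted p = 2.49e-07).

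Divided by exon length, the makeup of the binding protein transcripts differed between groups. Igfbp6 was the largest share of summed FPM per kb in control cells, at 66.1% ± 5.3 in GM and 58.7% ± 9.86 in DM3 (SD, n = 3). Igfbp5 made up 4.86% ± 3.54 in control GM and 24.4% ± 4.11 in control DM3, against 61.6% ± 4.53 in MUNC spliced DM3 and 64.8% ± 3.88 in MUNC genomic DM3. Both MUNC lines in DM3 were thus led by Igfbp5.

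The remainder differed between the MUNC lines. In MUNC spliced DM3, Igfbp7 took 28.6% ± 1.32 and Igfbp6 8.49% ± 3.08 (SD, n = 3). In MUNC genomic DM3, Igfbp6 took 29.6% and Igfbp7 3.98%. Igfbp2 reached 14.4% ± 0.551 in MUNC genomic GM and 1.45% ± 0.608 in DM3, while Igfbp3 never passed 1.29% in any library. The sum over the 6 genes was 100.1 ± 13.9 FPM per kb in control GM and 707 ± 14.7 FPM per kb in MUNC genomic DM3 (SD, n = 3), the lowest and the highest group. The share rests on GENCODE exon lengths, which count all annotated exons of a gene.

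**Figure D2:**
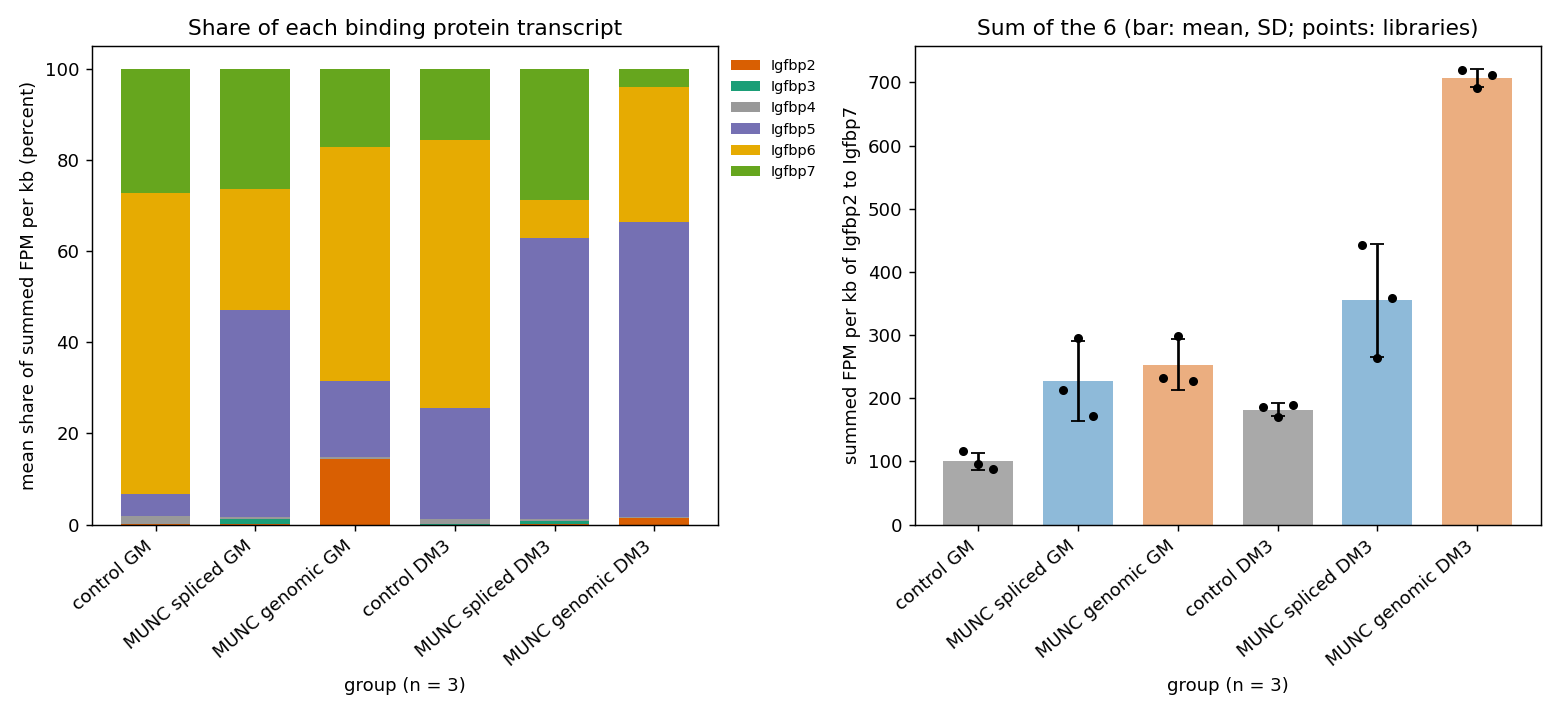
Left, mean share in percent of each Igfbp transcript in the summed FPM per kb (y axis) by group (x axis, n = 3). Right, that sum in FPM per kb, with bars for the mean, error bars for SD and points for libraries. Igfbp5 rises from 4.86% in control GM to 61.6% in MUNC spliced and 64.8% in MUNC genomic DM3, and the sum is highest in MUNC genomic DM3.

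The number of the 10 called in each comparison stood beside the share of all tested genes called, as the background. With differentiation, 5 of the 10 were called in control cells, all higher, where 58.2% of all tested genes were called and 29.6% were called higher. In MUNC spliced cells 5 were called, 4 of them higher, against 35.6% of all 13869 tested genes, where 2388 were called higher. In MUNC genomic cells 5 were called, 4 of them higher, against 51.4%, where 3643 were called higher. Irs1 was called higher in all 3 lines, and Igfbp6 was called in all 3 but lower in MUNC spliced cells.

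Against control, 4 of the 10 were called in MUNC spliced GM, all higher, where 35.5% of all tested genes were called and 18.2% higher. That count fell to 2 without control GM replicate 2 or without MUNC spliced GM replicate 1. In MUNC genomic GM 4 were called, 3 of them higher, against 26.8%, where 1694 of the 13869 tested genes were called higher. In DM3, 5 were called in MUNC spliced cells, 4 of them higher, against 43.3%, where 3088 were called higher. In MUNC genomic DM3 also 5 were called, 3 of them higher, against 40.3%, where 2683 were called higher. Igfbp5 was the only gene of the 10 called in all 4 of these comparisons. They share their control libraries, so common calls are not separate observations.

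Between the MUNC lines, 4 of the 10 were called in GM, 2 in each direction, against 35.8% of all 13869 tested genes. Of all tested genes, 2757 were called higher and 2213 lower in MUNC spliced GM. In DM3, 7 were called, 5 of them higher in MUNC spliced cells, against 44.2%, where 3247 were called higher. Igf1, Igf1r, Irs1, Igfbp3 and Igfbp7 were higher in MUNC spliced DM3, and Igfbp2 and Igfbp6 were higher in MUNC genomic DM3. For the list chosen with these values known, the counts are a description only.

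**Figure D3:**
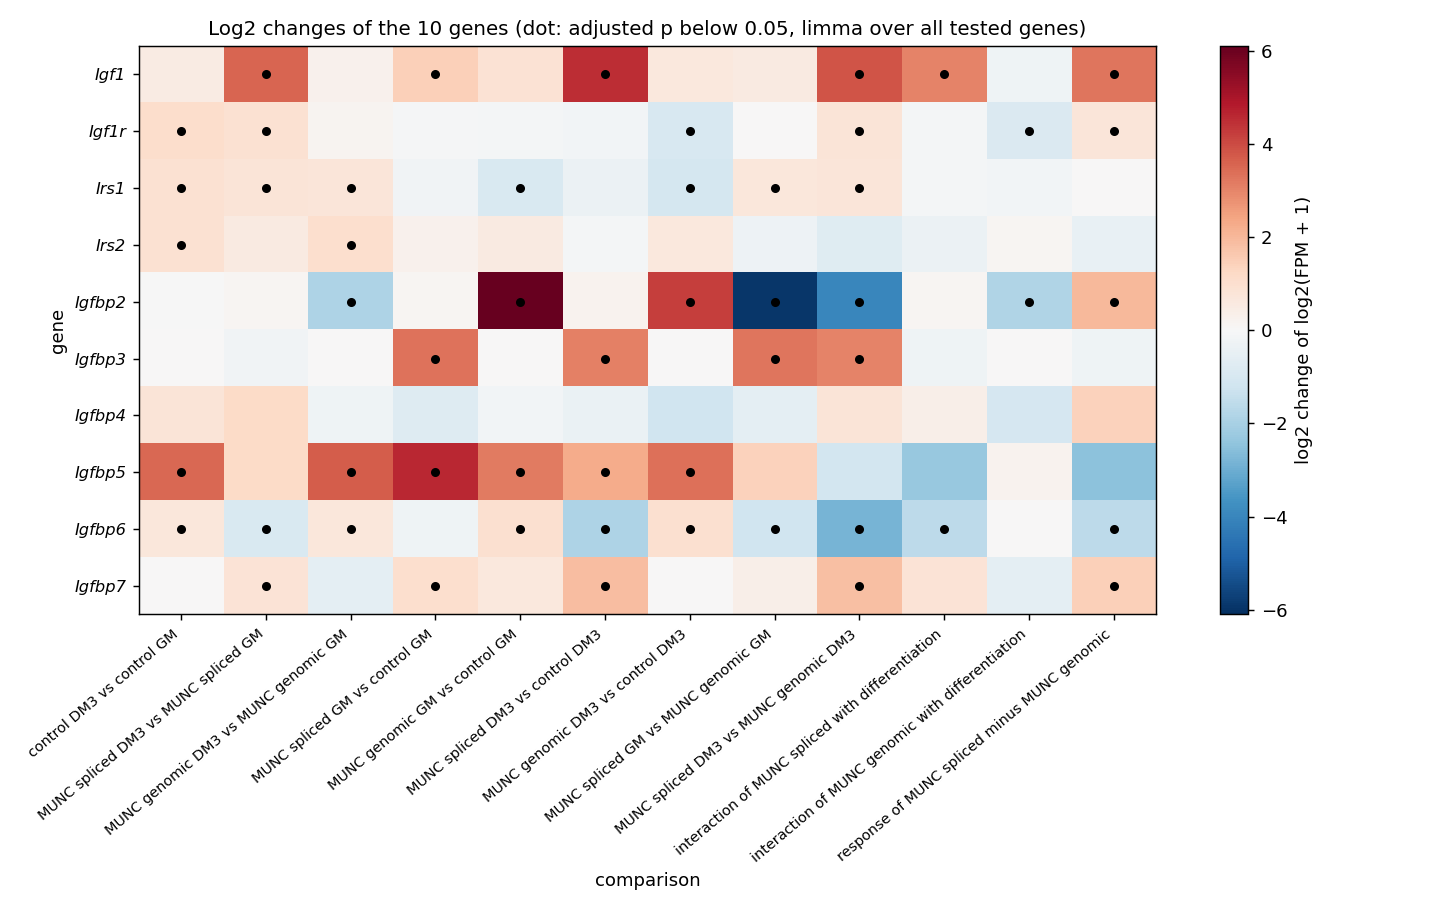
Log2 change on the log2(FPM + 1) scale (colour, red higher and blue lower) of the 10 genes (rows) in the 12 comparisons (columns), with a dot where limma called the gene over all tested genes. The darkest red cell is Igfbp2 in MUNC genomic GM, at 6.06 against control, and the row of Igfbp4 has no dot in this fit of all libraries.

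Differences in the response to differentiation were tested as interaction terms. Between MUNC spliced and control cells, 2 of the 10 responses differed, against 14.4% of all tested genes. Igf1 responded more in MUNC spliced cells, by 3.04 (SE 0.72, limma adjusted p = 0.0128), but the call was lost with a pseudocount of 0.1 (limma adjusted p = 0.11), in edgeR (adjusted p = 0.185) and in DESeq2 (adjusted p = 0.205). Igfbp6 went down in MUNC spliced and up in control cells, with a difference of -1.6 (SE 0.25, limma adjusted p = 0.00102). The Igfbp5 response was smaller in MUNC spliced cells by a log2 difference of -2.32 that was not called (limma adjusted p = 0.0992), and with the replicate block it was called (limma adjusted p = 0.0421) together with Igfbp7.

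Between MUNC genomic and control cells, 2 of the 10 responses differed, both lower in MUNC genomic cells, against 8.81% of all tested genes and 5.25% called lower. Igf1r responded less in MUNC genomic cells, by -0.86 (SE 0.22, limma adjusted p = 0.0204), and this call was lost without replicate 1 or 3 of control GM or replicate 3 of control DM3. Igfbp2 differed by -1.85 (SE 0.32, limma adjusted p = 0.00149). Control cells held 3 and 2 reads of it in the 2 media, and on whole reads the difference was not called in edgeR (adjusted p = 0.723) or DESeq2 (adjusted p = 0.613).

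Between the MUNC lines, 5 of the 10 responses differed, 4 of them with a positive value for MUNC spliced minus MUNC genomic, against 10.5% of all tested genes. Of the 13869 tested genes, 743 were called with a positive and 717 with a negative value. Among the 4 members with a positive value is Igfbp2, which had 14 reads in MUNC spliced GM and 30 in MUNC spliced DM3. Its change there was 0.11 and not called, so its term mainly restates the fall within MUNC genomic cells. For a list chosen with these values known, the counts of responses are a description only. Without replicate 1 or 3 of MUNC genomic GM, replicate 3 of MUNC spliced DM3 or replicate 2 or 3 of MUNC genomic DM3, 3 were called. Igf1 differed by 3.28 (SE 0.72, limma adjusted p = 0.00852), Igfbp2 by 1.97 (SE 0.32, limma adjusted p = 0.000969) and Igfbp6 by -1.62 (SE 0.25, limma adjusted p = 0.000622). The Igf1 call was lost with a pseudocount of 0.1 (limma adjusted p = 0.0898) and in edgeR (adjusted p = 0.0603). Igf1r differed by 0.73 (SE 0.22, limma adjusted p = 0.0414) and Igfbp7 by 1.45 (SE 0.42, limma adjusted p = 0.0364), and these calls were lost in 10 and 8 of the 12 fits that left out a library, at changes of 0.65 to 0.88 and 1.31 to 1.69 over all 12. The Igf1r call was also lost without the filter (limma adjusted p = 0.0714), with FPM rescaled to equal sums (limma adjusted p = 0.0561) and with quantile normalization (limma adjusted p = 0.0693). The Igfbp7 call was also lost without the filter (limma adjusted p = 0.08) and in edgeR (adjusted p = 0.0529).

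Of 43 other genes of the pathway, listed by function, 35 passed the filter on low values. With differentiation, 25 of the 35 were called in control cells (19 higher, 6 lower), where 58.2% of all tested genes were called. In MUNC spliced cells 13 were called (11 higher, 2 lower), against 35.6% of all tested genes, and in MUNC genomic cells 17 (12 higher, 5 lower), against 51.4%. Against control GM, 13 were called in MUNC spliced (9 higher, 4 lower) and 7 in MUNC genomic cells (5 higher, 2 lower), against 35.5% and 26.8% of all tested genes. The last count was 17 with the replicate block and 13 without MUNC genomic GM replicate 3. It was 3 without MUNC genomic GM replicate 2, and 4 without MUNC genomic GM replicate 1, without control GM replicate 3 or with only the compared groups fitted. Against control DM3, 20 were called in MUNC spliced (11 higher, 9 lower) and 11 in MUNC genomic cells (5 higher, 6 lower), against 43.3% and 40.3% of all tested genes. These lists were made with earlier results known, and the counts are read against those shares as a description.

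The other ligand gene of the pathway, Igf2, rose most of these genes in MUNC spliced cells. It read 299, 95.2 and 104 FPM in MUNC spliced DM3 and 3.63, 6.71 and 3.64 FPM in MUNC spliced GM, a log2 change of 4.72 (SE 0.46, limma adjusted p = 2.04e-06). Against control DM3, at 0.73, 0.967 and 2.28 FPM, the log2 change was 6.02 (SE 0.46, limma adjusted p = 3.72e-08). MUNC genomic DM3 held 3.21, 12.5 and 2.34 FPM. Igf1 and Igf2 were thus both highest in MUNC spliced DM3, Igf2 in replicate 1 and Igf1 in replicate 3. Igf2 was also the gene that rose most in MUNC spliced against control GM, by 2.26 (SE 0.46, limma adjusted p = 0.00118), and with differentiation of MUNC genomic cells, by 2.41 (SE 0.46, limma adjusted p = 0.000385).

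Igf2r, the gene of the scavenger receptor that removes IGF2, fell most in 3 of the 4 comparisons with control. In DM3 it averaged 265 ± 84.3 FPM for control, 87.1 ± 12.8 FPM for MUNC spliced and 46.8 ± 7.24 FPM for MUNC genomic cells (SD, n = 3). The log2 changes were -1.54 (SE 0.43, limma adjusted p = 0.00895) and -2.43 (SE 0.43, limma adjusted p = 0.000299). In MUNC genomic GM it fell by 2.92 against control (SE 0.43, limma adjusted p = 9.5e-05).

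The remaining extremes were genes of FoxO factors, of PI3K and of proteases that cleave binding proteins. Foxo3 rose most with differentiation of control cells, by 1.68 (SE 0.17, limma adjusted p = 9.21e-07), and Foxo1 rose most in MUNC genomic against control GM, by 1.06 (SE 0.17, limma adjusted p = 0.000234). Adam12, a metalloprotease gene whose product cleaves IGFBP3 and IGFBP5, fell by 2.69 with differentiation of control cells (SE 0.41, limma adjusted p = 3.68e-05) and by 1.94 in the MUNC genomic line (SE 0.41, limma adjusted p = 0.000852). It was also the gene that rose most in MUNC genomic against control DM3, by 1.6 (SE 0.41, limma adjusted p = 0.00479). Htra1, a secreted serine protease gene, fell most in MUNC spliced against control GM, by 1.34 (SE 0.2, limma adjusted p = 8.79e-05). Pik3cb, a catalytic subunit gene of PI3K, fell most with differentiation of MUNC spliced cells, by 0.66 (SE 0.14, limma adjusted p = 0.00203).

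**Figure D4:**
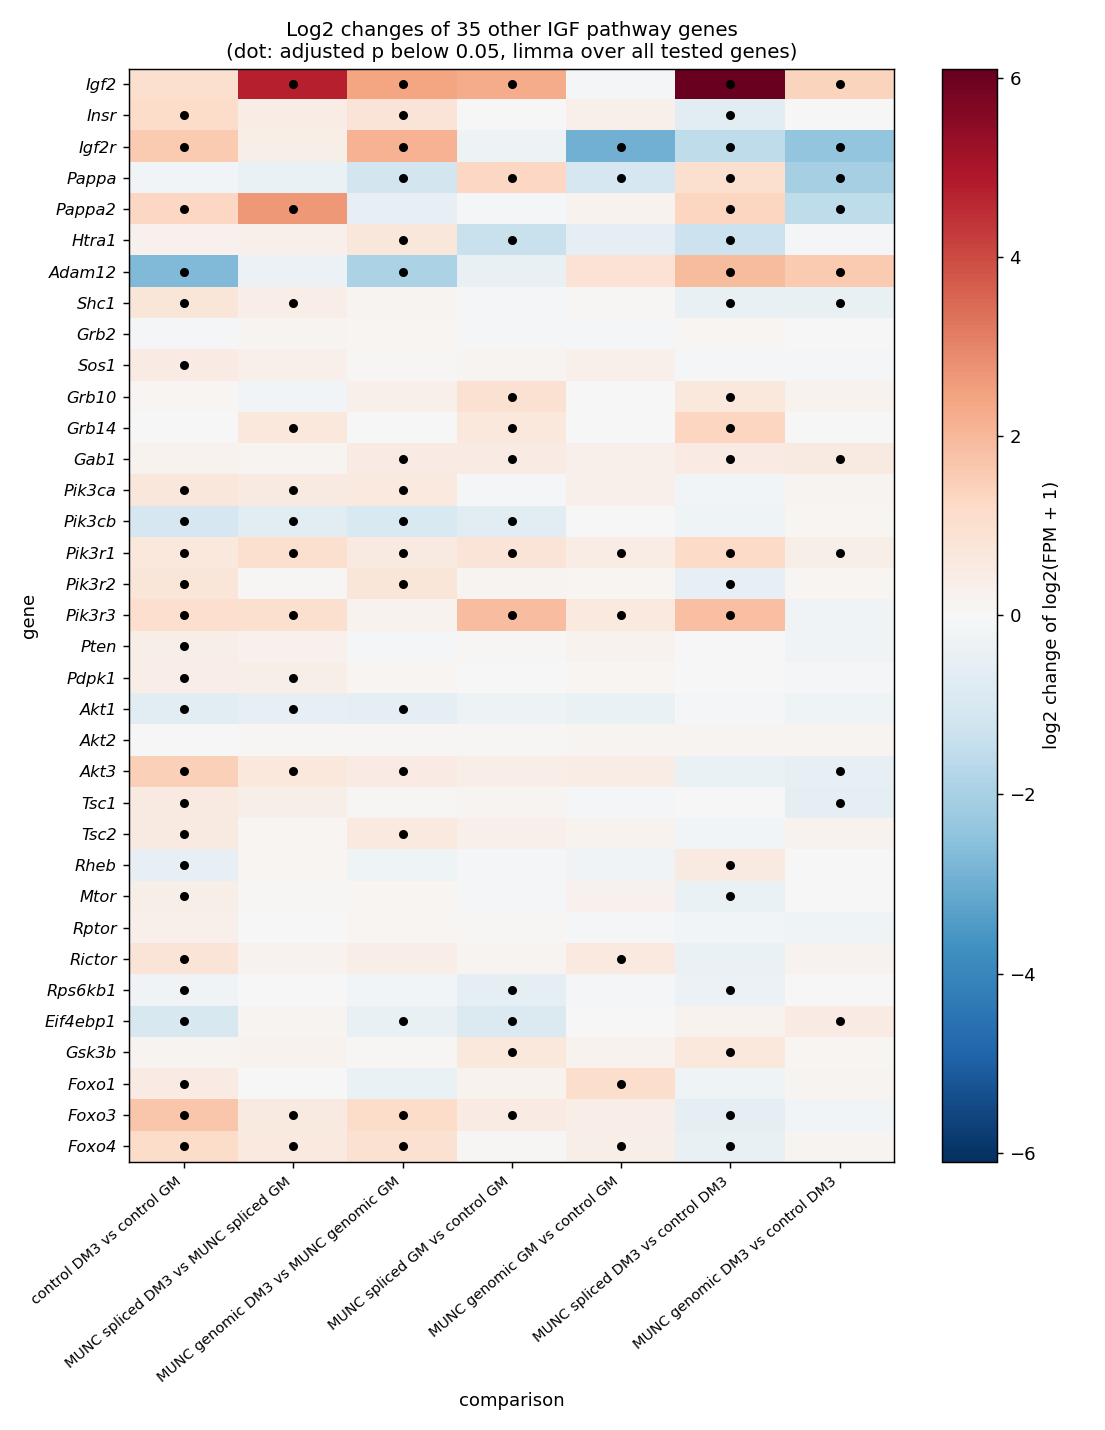
Log2 change on the log2(FPM + 1) scale (colour, red higher and blue lower) of 35 other genes of the pathway (rows) in the 3 differentiation comparisons and the 4 comparisons with control (columns), with a dot where limma called the gene. Igf2 holds the darkest red cell, at 6.02 in MUNC spliced against control DM3, and Igf2r the darkest blue, at -2.92 in MUNC genomic against control GM.

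By likeness of the 6 group means over the 11025 genes compared, Igfbp2 was closest to Kcnab2, at a root mean square log2 difference of 0.492, and Igfbp3 to Kctd15, at 0.102. Kcnab2, a potassium channel subunit gene, averaged 82.3 and 31.5 FPM in MUNC genomic GM and DM3, and at most 1.37 FPM elsewhere. Kctd15 averaged 7.23 and 6.68 FPM in MUNC spliced GM and DM3 and at most 0.0161 FPM elsewhere. The genes closest to the others were Lgals8 for Igf1r, Atg12 for Irs1, Ppp3ca for Irs2, Zc3hav1 for Igfbp4, Maf for Igfbp5, Chst11 for Igfbp6 and Amacr for Igfbp7. With 6 means per gene and so many genes to choose from, a close neighbour is a description only.

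The authors' deposited tables cover 5 of the 12 comparisons. Their log2 fold changes had the same sign as those above for 9 of the 10 genes with differentiation of control cells, for 9 in MUNC genomic against control DM3 and for all 10 in the other 3. Every gene called above in these comparisons was also below an adjusted p of 0.05 in the authors' deposited tables. Those tables called 4 more, Irs2 and Igfbp4 in MUNC genomic against control DM3, Igfbp7 in MUNC genomic against control GM and Igfbp2 in MUNC spliced against control DM3. In the authors' deposited table the last had a log2 fold change of 3.85 (SE 1.42, adjusted p = 0.0241), on 30 reads in MUNC spliced and 2 reads in control cells.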

How the data were processed

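Per the submitters' processing notes, reads were processed with STAR, HTSeq and DESeq2 on mm10. Their versions, the annotation and the strand setting are not given in the sources used here. The authors deposited 1 table of signal in FPM for 18 libraries, which a label calls FPKM. Dividing each library's values by the step they share returned whole reads for 100% of values, to within 0.0354 of a read (tolerance 0.05), so the values are gene reads over a size factor, not divided by length. The sums of FPM were 946834 to 1048477. Per the file headers, 5 deposited tables give log2 fold changes, p-values and adjusted p-values in DESeq2's columns, and their mean count and statistic columns, deposited as scores, were not used.

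Groups came from sample titles, and a source label contradicted the title in 9 samples. limma 3.58.1 in R 4.3.3 was fitted with a trend to log2(FPM + 1) of all 18 libraries, over 13869 genes that reached 0.5 FPM in 3 or more libraries, and was tested on simulated data. Alternatives were a pseudocount of 0.1, no filter, equal sums, quantile normalization, only the compared groups, a replicate block, edgeR 4.0.16 and DESeq2 1.42.0 on recovered reads, and leaving out each library. Same-numbered libraries deviated together (r over 0.1 for every pair) in the control differentiation comparison, the 4 comparisons with control and MUNC spliced against MUNC genomic GM, with r from 0.171 to 0.727, and less in the other 3 (lowest r 0.016, 0.053 and 0.094). The pairing is read from the data, since the labels give numbers only.

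The members, lists and tests were chosen with earlier results of these data known. All 10 genes are given in every library, with log2 changes where called. Pathway genes were named as the most risen and most fallen called gene of each of 7 comparisons, and likeness was limited to genes with a group mean of 5 FPM or more. The levels per library of Myog, Myh3, Tmem8c and Igf2 were added after they had been seen. Positions and exon lengths are GENCODE M21, which held 97.8% of the identifiers.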

Additional observations from a re-analysis of the deposited data

Results flagged for a closer look

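In 9 results the response of a gene to differentiation differed between cell lines by an interaction term in limma over all tested genes. Against control, the response of MUNC spliced cells differed by 3.04 for Igf1 and -1.6 for Igfbp6 on the log2 scale, and that of MUNC genomic cells by -0.86 for Igf1r and -1.85 for Igfbp2. For MUNC spliced minus MUNC genomic cells, the responses differed by 3.28 for Igf1, 0.73 for Igf1r, 1.97 for Igfbp2, -1.62 for Igfbp6 and 1.45 for Igfbp7. Igfbp6 was called in every alternative fit of both of its terms, and Igfbp2 in every such fit of its term between the MUNC lines. The other terms lost the call in some fits. Neither Igf1 term was called with a pseudocount of 0.1 or in edgeR, nor was Igfbp2 against control in edgeR or DESeq2. Leaving out a library ended the call of Igf1r against control in 3 of 12 fits. Between the MUNC lines it ended those of Igf1r and Igfbp7 in 10 and 8 of 12 fits.

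For Igfbp2 the first term sets a fall of 1.86 in MUNC genomic cells against control libraries with 3 and 2 reads in all. The second sets the same fall against MUNC spliced libraries with 14 reads in GM and 30 in DM3. Myoblast and myotube marker sums also differed between the lines in DM3, and their part in these differences was not tested.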

How the results depend on the processing

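Over 53 log2 changes of called genes, 796 alternative settings gave 746 with the same direction and call, 50 that lost the call, spread over 11 results, and 0 that reversed. Of the 53, 42 were called under every alternative run. Of 284 recomputed counts, 260 stayed within 1.5 times and 24, in 5 of 19 counts, did not. Of the 10 genes, 2 were called in the interaction of MUNC spliced cells, against 1 with a pseudocount of 0.1, 1 in edgeR, 1 in DESeq2 and 4 with the replicate block. In the interaction of MUNC genomic cells 2 were called, against 1 in edgeR and 1 in DESeq2, and 1 to 3 when each library was left out. For the responses of the MUNC lines against each other 5 were called, against 3 without the filter, 3 in edgeR and 3 to 4 with a library left out. That count was 6 with the replicate block and 6 in DESeq2, which added Igfbp5 (adjusted p = 0.0373 in DESeq2). For MUNC spliced against control GM 4 were called, and 2 to 5 with a library left out. Of 35 pathway genes, 7 were called in MUNC genomic against control GM, against 4 in a fit of the compared groups only, 17 with the replicate block and 3 to 13 with a library left out: 4 without control GM replicate 3, 4, 3 and 13 without MUNC genomic GM replicates 1, 2 and 3.

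The replicate block ended no call of a member. Beside the calls given with the results, it added Irs2 with differentiation of MUNC spliced cells (adjusted p = 0.0149 in limma), Irs2 between the MUNC lines in DM3 (0.00197) and, among the differences in response between the MUNC lines, Igfbp5 (0.0389). The cause of these changes was not tested. At this depth Igfbp2 in control cells, and Igfbp3 in control and MUNC genomic cells, were at or near the limit of 3 reads, so the sizes of their differences carry the wide counting intervals given, and that of Igfbp3 between MUNC spliced and control GM has a lower bound only.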
